A study of Mus musculus with 28 samples.

Results

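Gene expression was compared between megakaryocyte-erythroid progenitors (MEP, 3 arrays) and granulocyte-macrophage progenitors (GMP, 4 arrays), the sister branches of myeloid development in mouse bone marrow. These 7 arrays were chosen by their sample titles from the 28 arrays of the series, which profiles leukaemic cells carrying the fusion MLL-AF9 next to normal stem and progenitor cells. Both populations were lineage-negative, Sca-negative and Kit-positive marrow cells. MEP were sorted as negative for the Fc gamma receptors (FCR) and for CD34, and GMP as FCR-positive with high CD34. Common myeloid progenitors (CMP, 4 arrays), titled FCR-positive with low CD34, are set beside them where a further level helps. None of these arrays is labelled with a transgene, an allele or a treatment, and the labels used here give no strain, age, sex or pooling of animals. Each sample held about 10000 sorted cells, and about 50 ng of total RNA was turned into biotinylated cRNA. Nothing in the labels says that replicates came from separate animals, so the spread between samples may be technical. The p-values below rest on a spread pooled over all 22 arrays of the sorted experiment. These also include a sort enriched for stem cells and leukaemic cells carrying MLL-AF9 (L-GMP).

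MEP give rise to red cells and to megakaryocytes, the cells that shed platelets. GMP give rise to neutrophils, monocytes and their relatives. The factors GATA1, KLF1 and GFI1B drive erythroid and megakaryocytic genes, and PU.1 (Spi1) and the C/EBP factors drive granule, lysosome and receptor genes of phagocytes. GATA1 and PU.1 bind each other and each restrains the programme of the other, a textbook example of a lineage choice.

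Levels are given as log2 of the scaled probe set intensity. Intensities under 38.7 (5.27 on the log2 scale) were set to that floor, so a level at the floor means only that the probe set was not measured above it, and a change between a measured level and the floor moves with the floor chosen. Changes are log2 differences, MEP minus GMP, with the standard error (SE) of the fit. A gene was called when its adjusted p from limma lay below 0.05. Of 8422 genes tested, 2314 were called (27.5%), of which 999 were higher in MEP (11.9%) and 1315 lower in MEP (15.6%). List members called between MEP and GMP are to be read beside these shares of 11.9% and 15.6%. A called change of at least 2-fold was found for 267 genes higher in MEP (3.17%) and 513 lower in MEP (6.09%). Without scaling of the arrays the split was 632 higher and 1564 lower in MEP. The MEP and GMP values did not overlap for 2734 genes (32.5%). That share is the reference wherever a lack of overlap is named below. The 15 largest rises and the 15 largest falls were picked among called genes without overlap, so for them it is no result. The median change of all genes was 0.05. In RNA from sorted pools, fewer expressing cells and less RNA per cell cannot be told apart.

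Arrays of a group resembled each other more than those of the other group. Correlations of log2 levels across tested genes ran from 0.943 to 0.975 among MEP arrays, from 0.947 to 0.983 among GMP arrays, and from 0.843 to 0.886 between MEP and GMP arrays, as a description. The log2 ratio of 3' to 5' control signal, which tracks the length of the amplified RNA, was 3.10 ± 0.10 in MEP (SD, n = 3) and 2.92 ± 0.31 in GMP (SD, n = 4). Where a call rests on 1 array, the value without that array is given beside it.

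The surface markers of the sort were set against the labels as a check and not as a finding. Fcgr3, an Fc gamma receptor, was at the floor on all 3 MEP arrays, against 9.28, 9.19, 9.59 and 9.97 in GMP. Cd34 was 6.86, 6.65 and 5.32 in MEP, against 8.9998, 8.80, 9.11 and 8.86 in GMP. Both genes matched the titles of MEP and GMP. CMP followed their title less closely, since Fcgr3 averaged 5.47 ± 0.23 and Cd34 9.57 ± 0.26 in CMP (SD, n = 4), the mean of Cd34 lying above every GMP value. Fcgr2b, the inhibitory Fc receptor, was between 6.45 and 7.52 in MEP and between 9.96 and 10.49 in GMP, and Kit, the stem cell factor receptor, was between 9.23 and 9.76 in MEP and between 8.54 and 8.93 in GMP.

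To show regulatory sequence of genes that mark each branch, 6 start-site windows are printed, each from 250 bases before to 50 bases after the start (RefSeq, GRCm38.p6). They were picked after the values were seen, as markers of a branch whose window holds the motif searched. The window of Klf1 lies at chr8:84901732-84902031 on the plus strand, Gfi1b at chr2:28621933-28622232 on the minus strand and Epor at chr9:21963527-21963826 on the minus strand. Capitals mark GATAAG or its reverse complement CTTATC, a form of the site that GATA factors bind.
Klf1: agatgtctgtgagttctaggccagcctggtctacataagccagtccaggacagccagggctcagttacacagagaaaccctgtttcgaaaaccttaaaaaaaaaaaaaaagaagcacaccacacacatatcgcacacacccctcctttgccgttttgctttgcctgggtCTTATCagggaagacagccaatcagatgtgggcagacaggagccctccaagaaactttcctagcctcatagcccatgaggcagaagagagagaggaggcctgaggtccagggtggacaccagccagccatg
Gfi1b: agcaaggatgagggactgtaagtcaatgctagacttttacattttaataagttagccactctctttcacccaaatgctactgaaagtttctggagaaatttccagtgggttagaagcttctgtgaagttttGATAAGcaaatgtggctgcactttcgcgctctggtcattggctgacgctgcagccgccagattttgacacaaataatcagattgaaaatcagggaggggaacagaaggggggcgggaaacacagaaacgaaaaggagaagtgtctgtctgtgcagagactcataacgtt
Epor: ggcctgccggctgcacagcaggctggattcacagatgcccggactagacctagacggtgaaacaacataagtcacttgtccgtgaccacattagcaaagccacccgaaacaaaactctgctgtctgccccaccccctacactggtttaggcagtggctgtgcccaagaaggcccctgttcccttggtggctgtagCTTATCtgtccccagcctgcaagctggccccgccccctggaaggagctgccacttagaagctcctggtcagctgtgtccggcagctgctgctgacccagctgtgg
The window of Mpo lies at chr11:87793534-87793833, Elane at chr10:79886062-79886361 and Prtn3 at chr10:79879417-79879716, all on the plus strand. Capitals mark GAGGAAGT or its reverse complement ACTTCCTC, a purine-rich site of the kind that PU.1 binds.
Mpo: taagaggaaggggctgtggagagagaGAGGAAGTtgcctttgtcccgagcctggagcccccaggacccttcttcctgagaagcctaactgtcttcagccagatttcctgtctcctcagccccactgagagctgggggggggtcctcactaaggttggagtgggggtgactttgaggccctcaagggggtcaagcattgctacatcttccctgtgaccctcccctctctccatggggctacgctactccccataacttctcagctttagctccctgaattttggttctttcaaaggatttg
Elane: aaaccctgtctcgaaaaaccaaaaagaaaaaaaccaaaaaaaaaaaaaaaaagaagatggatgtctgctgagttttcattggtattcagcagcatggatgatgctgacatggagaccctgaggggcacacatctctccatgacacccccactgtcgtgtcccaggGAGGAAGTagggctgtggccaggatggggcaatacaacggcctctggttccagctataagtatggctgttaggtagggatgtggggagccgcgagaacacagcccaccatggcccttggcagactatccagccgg
Prtn3: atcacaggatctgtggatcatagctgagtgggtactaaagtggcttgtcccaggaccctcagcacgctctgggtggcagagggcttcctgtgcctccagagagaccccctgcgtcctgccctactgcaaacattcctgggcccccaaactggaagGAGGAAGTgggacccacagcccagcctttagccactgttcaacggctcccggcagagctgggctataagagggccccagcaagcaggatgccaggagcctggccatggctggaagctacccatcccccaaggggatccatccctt

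Each window held 1 match. Of the 15 genes with the largest rise and the 15 with the largest fall in MEP, 14 and 13 had a promoter in the RefSeq table. GATAAG, searched on both strands, lay in 4 of the 14 promoters and in 2 of the 13, and in 7.43% of all 27025 promoters of the table. GAGGAAGT lay in 0 of the 14 and in 1 of the 13, and in 3.28% of all promoters. Another 8 motifs were searched in the same way. AGATAA lay in 3 and 0 promoters of the risen and fallen genes and in 11.4% of all, TGATAA in 5 and 1 and in 9.26% of all, and both share the letters GATAA with the first motif. The KLF-type motif CACCC lay in 11 and 8 and in 56.7% of all, and the longer CCACACCC that contains it in 0 and 0 and in 3.57% of all. GGAAGT, which is part of GAGGAAGT, lay in 2 and 6 and in 24.1% of all. The C/EBP forms TTGCNNAA, TTGCGCAA (a case of it) and TTGCAAT lay in 2 and 3, in 0 and 0 and in 0 and 0, and in 10.8%, 0.185% and 2.24% of all promoters. The risen and fallen genes come from the tested genes, which have 6851 promoters in the table. In these, GATAAG lay in 5.18%, AGATAA in 6.61%, TGATAA in 4.39%, CACCC in 62.3% and CCACACCC in 3.81%. GGAAGT lay in 28.8% of them, GAGGAAGT in 2.82%, TTGCNNAA in 8.41%, TTGCGCAA in 0.307% and TTGCAAT in 1.42%. A match describes the letters of a window, not a bound site.

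The factors that drive red cells and platelets were measured in MEP where several of them did not exceed the floor in GMP. Klf1, the erythroid Krüppel-like factor, was 10.11, 10.31 and 10.96 in MEP and at the floor on all 4 GMP arrays, at least 36.4-fold higher in MEP (adjusted p = 1.76e-11). Gfi1b, a repressor needed for red cells and platelets, was 9.76, 9.78 and 9.69 in MEP and at the floor on all 4 GMP arrays, at least 22.2-fold higher in MEP (adjusted p = 1.71e-14). Zfpm1, the GATA1 cofactor FOG1, was 8.30, 7.80 and 8.10 in MEP and at the floor on all 4 GMP arrays, at least 6.94-fold higher in MEP (adjusted p = 4.05e-11). Each of the 3 genes was thus above the floor on every MEP array and on no GMP array.

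Gata1, the master factor of both MEP lineages, was 9.36, 9.51 and 9.52 in MEP, against 6.21, 6.05, 6.16 and 5.72 in GMP, a rise of 3.43 ± 0.22 in MEP (adjusted p = 1.16e-10). Tal1, which forms a complex with GATA1, LMO2 and LDB1, rose by 2.39 ± 0.16, Ldb1 by 1.71 ± 0.22 and Lmo2 by 0.59 ± 0.12. Gata2, which comes before GATA1 in progenitors, was 11.34, 11.61 and 11.70 in MEP, against 8.94, 9.52, 9.46 and 9.06 in GMP, a rise of 2.30 ± 0.27. No MEP value of these 5 genes overlapped a GMP value. Lmo2 had the smallest change and was already between 10.57 and 10.83 in GMP. Bcl11a, the repressor of fetal globin genes, rose by 1.76 ± 0.10 and Stat5a, which acts downstream of the erythropoietin receptor, by 1.09 ± 0.10. Stat5b, its close relative, changed by 0.11 ± 0.15 and was not called, but it had a called rise of 0.56 with the mean of its probe sets.

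Of 23 tested erythroid and megakaryocytic factors, 14 were called higher and 4 lower in MEP, and their median was 0.76, beside 0.05 for all genes. Fli1 had the largest fall among them. This ETS factor, which promotes megakaryocytes and opposes KLF1, was 6.88, 6.30 and 5.77 in MEP, against 8.84, 8.92, 8.74 and 8.89 in GMP, and fell by 2.54 ± 0.32 in MEP (adjusted p = 2.22e-06). Its values did not overlap between the groups. Cited2, a transcriptional coregulator, and Lyl1, a relative of Tal1, fell by 1.10 ± 0.16 and 0.89 ± 0.13. Myb, which both branches need, was between 12.20 and 12.39 in MEP and between 12.18 and 12.32 in GMP and was not called, though another of its probe sets was called higher (0.63). Nfe2, a factor of platelet release, rose by 0.52 ± 0.19 with overlapping groups (adjusted p = 0.0464), and the call was lost without MEP replicate 1 or 2 or without GMP replicate 1, 2 or 4. The adjusted p was then at most 0.256.

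Of 19 tested granulocyte-monocyte factors, 7 were called lower and 1 higher in MEP and 11 were not called, with a median of -0.27. Cebpd, a member of the C/EBP family, was 5.27, 5.98 and 5.56 in MEP, against 9.36, 9.72, 9.45 and 9.80 in GMP, and fell by 3.98 ± 0.22 in MEP (adjusted p = 1.19e-11). Gfi1, the relative of Gfi1b that neutrophils need, was 6.78, 7.16 and 5.31 in MEP, against 10.16, 10.38, 10.16 and 10.41 in GMP, and fell by 3.86 ± 0.29 (adjusted p = 1.27e-09). Cebpa, required for GMP to form, was 6.61, 6.63 and 6.43 in MEP, against 8.88, 9.19, 9.02 and 9.02 in GMP, and fell by 2.47 ± 0.17. For each of the 3 genes every MEP value lay below every GMP value. Spi1, which encodes PU.1, was 6.97, 7.19 and 6.54 in MEP, against 8.70, 9.30, 9.18 and 9.33 in GMP, and fell by 2.23 ± 0.18 (adjusted p = 4.08e-09). Cebpb fell by 2.33 ± 0.34, and Irf8, which favours monocytes over neutrophils, by 2.10 ± 0.16. Spi1 and Irf8 were above the floor on all MEP arrays, with Irf8 between 8.81 and 9.57 in MEP.

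The other lower factor of this list was Etv6, an ETS repressor, which fell by 0.81 ± 0.16. The one higher was Hhex, a homeobox gene of early blood cells, which rose by 0.80 ± 0.19. Egr1, an immediate early gene that also serves monocytes, differed by 2.69 ± 1.22 and was not called (adjusted p = 0.111). Its level was 11.77, 11.90 and 12.14 in MEP, against 5.87, 11.21, 10.37 and 9.54 in GMP, with GMP replicate 1 far below the other GMP arrays. CMP had 6.37, 11.97, 12.06 and 11.88, with replicate 1 again lowest. Egr1 was called with the replicate number as a block (adjusted p = 0.034), while without GMP replicate 1 its change was 1.57 (adjusted p = 0.327).

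**Figure D1:**
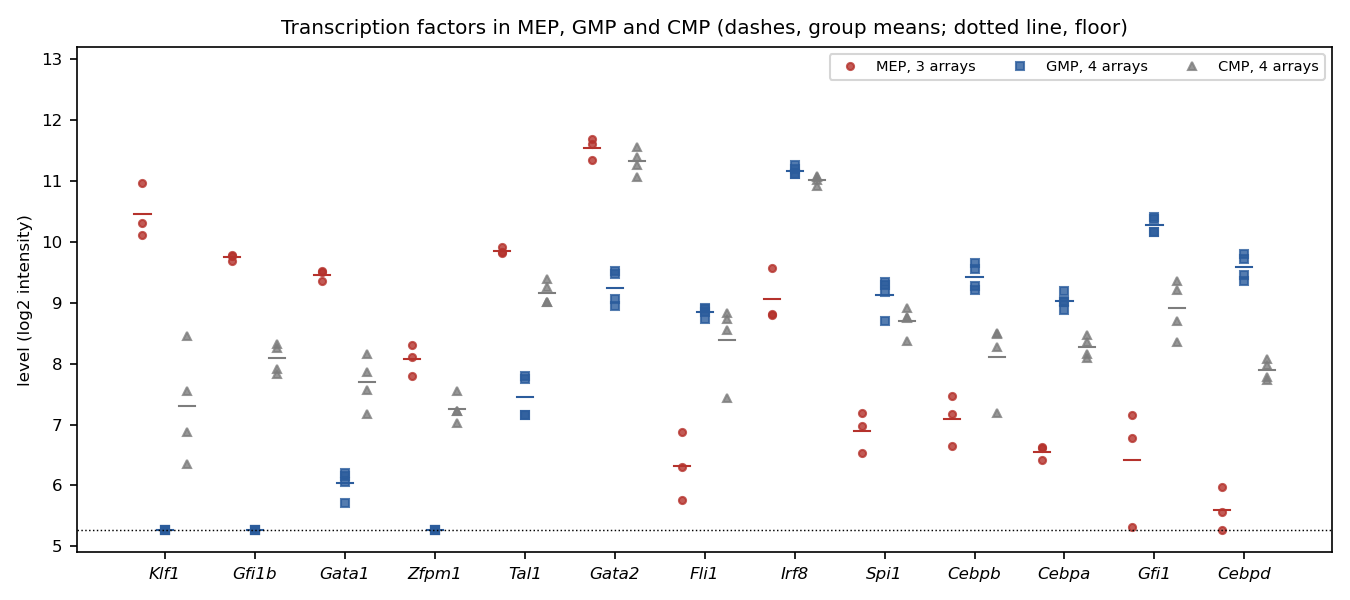
Levels of 13 transcription factors on a log2 intensity axis, with 1 point per array of MEP, GMP and CMP and a dash at each group mean. Klf1, Gfi1b and Zfpm1 sit on the floor of 5.27 in all 4 GMP arrays, and Fli1, Irf8, Spi1, Cebpb, Cebpa, Gfi1 and Cebpd are lower on every MEP array than on every GMP array.

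CMP lay between the branches for several of these factors. The contrasts of MEP and of GMP with CMP share the CMP arrays with each other and the MEP or GMP arrays with the comparison above, so their values are given side by side only. Against CMP, 521 of the 8422 genes were called higher in MEP (6.19%) and 914 lower in MEP (10.9%), and 689 were called higher in GMP (8.18%) and 724 lower in GMP (8.60%). Gata1 was 1.77 ± 0.22 higher in MEP than in CMP and 1.66 ± 0.20 lower in GMP than in CMP. Gata2 differed by 0.23 ± 0.27 between MEP and CMP (adjusted p = 0.657) and was 2.08 ± 0.25 lower in GMP than in CMP. Cebpa was 1.71 ± 0.17 lower in MEP than in CMP and 0.76 ± 0.16 higher in GMP than in CMP. Irf8 was 1.95 ± 0.16 lower in MEP than in CMP and differed by 0.15 ± 0.15 between GMP and CMP (adjusted p = 0.604). Of the 23 erythroid and megakaryocytic factors, 8 were called higher and 6 lower in MEP than in CMP, and 0 higher and 14 lower in GMP than in CMP.

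Receptors for growth factors differed in both directions. Epor, the erythropoietin receptor, was 8.84, 8.93 and 9.34 in MEP and at the floor on all 4 GMP arrays, at least 13.6-fold higher in MEP (adjusted p = 1.94e-11). Csf1r, the receptor for macrophage colony-stimulating factor, was 7.65, 8.47 and 7.89 in MEP, against 11.57, 11.51, 11.48 and 11.49 in GMP, and fell by 3.51 ± 0.21 in MEP (adjusted p = 4.75e-11). Csf3r, the receptor for granulocyte colony-stimulating factor, was 5.97, 5.57 and 5.59 in MEP, against 7.74, 7.73, 8.09 and 8.33 in GMP, and fell by 2.26 ± 0.18. The groups did not overlap for any of the 3. The probe sets of Csf1r disagreed, since a second one fell by 3.73 and another changed by 0.16 (adjusted p = 0.772). Il6ra, the interleukin 6 receptor, fell by 3.58 ± 0.29 and had 2 of 3 MEP arrays at the floor.

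Of 28 tested receptors, 12 were called lower (42.9%) and 4 higher (14.3%, beside 11.9% of all genes) in MEP, with a median of -0.28. The 4 higher were Epor, Il17ra (a rise of 1.63 ± 0.28), Tgfbr2 (0.98 ± 0.16) and Kit, which the sort used. A second probe set of Tgfbr2 changed by -0.26 and was not called, and the mean of both gave 0.36. Il3ra and Csf2ra, the chains that bind interleukin 3 and GM-CSF, fell by 1.05 ± 0.22 and 0.95 ± 0.15, and Csf2ra was not called with the mean of its probe sets (-0.29). The tumour necrosis factor receptors Tnfrsf1b and Tnfrsf1a fell by 1.82 ± 0.20 and 1.34 ± 0.13. Ifngr2, a chain of the interferon gamma receptor, fell by 1.34 ± 0.17, while its partner Ifngr1 changed by 0.07 ± 0.16 and was not called. Flt3 was between 6.29 and 7.06 in MEP and between 6.46 and 7.77 in GMP, beside a mean of 9.88 in CMP, and was not called between MEP and GMP.

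Genes of the red cell surface and of its enzymes were among the largest rises at the floor used here. Car1, carbonic anhydrase 1, was 12.02, 12.24 and 12.56 in MEP, against 6.55, 5.79, 5.87 and 5.40 in GMP, 82.6-fold higher in MEP (adjusted p = 4.65e-10). Ermap, which carries the Scianna blood group, was 10.99, 11.004 and 11.17 in MEP, against 5.56, 5.27, 5.27 and 5.27 in GMP, a rise of 5.71 ± 0.41 at this floor, 4.31 with the floor at the 50th percentile and 6.62 with it at the 10th. Aqp1, the water channel that carries the Colton blood group, was 10.77, 10.86 and 11.27 in MEP, against 5.61, 5.27, 5.27 and 5.27 in GMP, a rise of 5.61 ± 0.22, or of 4.22 and 6.002 with those floors. These genes were picked among those whose groups did not overlap, and Ermap and Aqp1 were at the floor on all GMP arrays but replicate 1.

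Blvrb, biliverdin reductase B, was 10.48, 10.43 and 11.16 in MEP and at the floor on all 4 GMP arrays, at least 42.7-fold higher in MEP (adjusted p = 1.34e-09). Rhag, a partner of the Rh antigens, was 9.06, 8.52 and 9.26 in MEP and at the floor on all 4 GMP arrays, at least 12.8-fold higher in MEP. Sphk1, which makes sphingosine 1-phosphate, was at least 11.6-fold higher in MEP, and Mt2, a metal-binding metallothionein, rose by 4.05 ± 0.32. Among the MEP arrays, replicate 3 had the highest value of Car1, Ermap, Aqp1, Blvrb and Rhag.

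Of 26 tested genes of this list, 16 were called higher and 0 lower in MEP, with a median of 1.51, and 1 was called lower without GMP replicate 1. The 10 not called included genes of maturing erythroblasts. Slc4a1, the band 3 anion exchanger, was 7.78, 8.01 and 7.65 in MEP, against 7.74, 7.95, 7.89 and 8.56 in GMP. Hba-a1, an alpha globin gene whose copies are near-identical, was 7.04, 6.81 and 6.99 in MEP, against 7.12, 7.21, 7.42 and 7.69 in GMP (adjusted p = 0.062). Neither was higher on the MEP arrays. The adult beta globin genes are not analysed here. Against CMP, 14 genes of the list were called higher and 0 lower in MEP, and 0 higher and 7 lower in GMP.

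**Figure D2:**
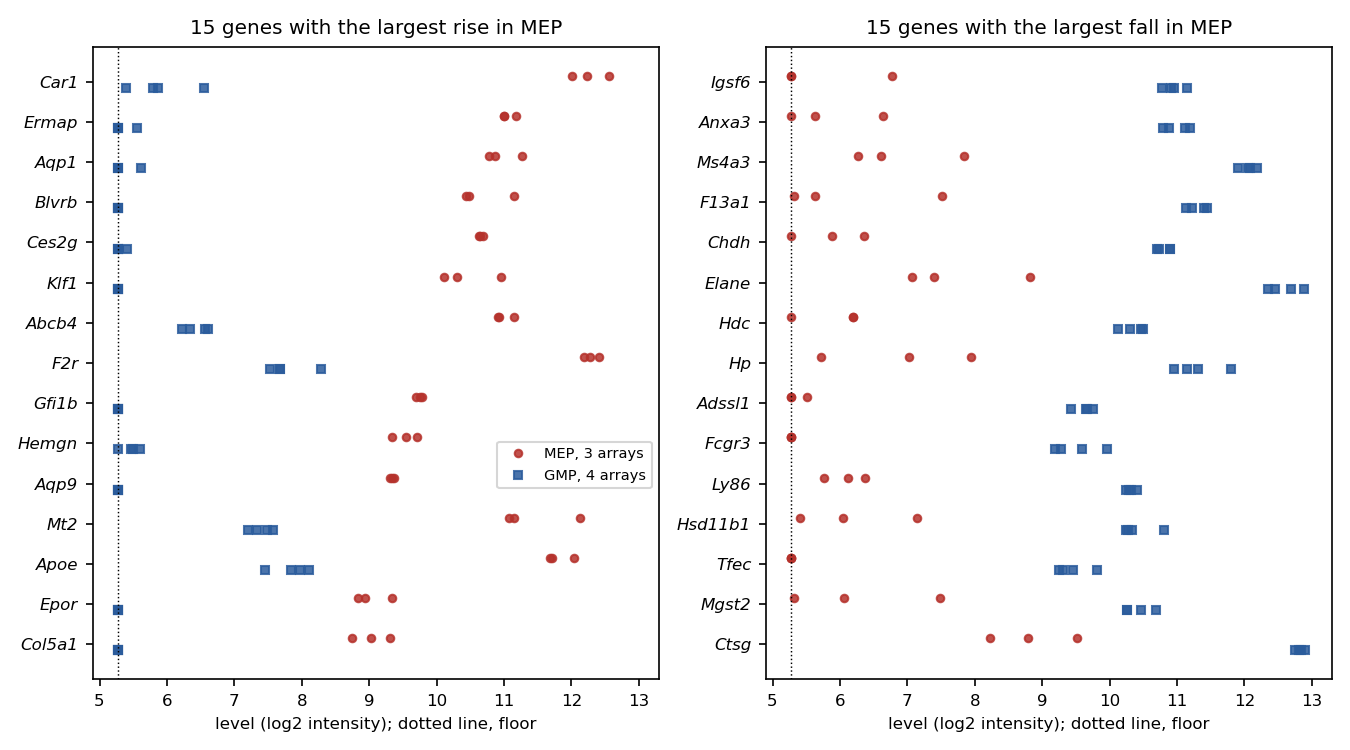
Levels on each array of the 15 genes with the largest rise and the 15 with the largest fall in MEP against GMP, among called genes whose groups do not overlap, with values floored at 5.27, on a log2 intensity axis. In one panel every MEP point lies above every GMP point in level and in the other every MEP point lies below, from Car1 with a change of 6.37 ± 0.45 to Igsf6 with -5.17 ± 0.44.

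Haem synthesis runs from ALAS, which makes aminolevulinic acid, to ferrochelatase, which inserts the iron. Alad, which acts right after ALAS, was 9.73, 9.45 and 9.99 in MEP, against 7.74, 7.97, 8.04 and 7.92 in GMP, and rose by 1.81 ± 0.14 in MEP (adjusted p = 1.12e-09). Cpox, Urod and Fech (ferrochelatase) rose by 1.42 ± 0.34, 1.38 ± 0.17 and 0.67 ± 0.12. Alas1, the housekeeping form of the first enzyme, was 7.16, 7.41 and 7.60 in MEP, against 10.69, 10.66, 11.09 and 11.34 in GMP. It fell by 3.55 ± 0.16 in MEP (adjusted p = 6.16e-13), and a second probe set gave a fall of 3.56. Alas2, the erythroid form, was 7.07, 7.14 and 7.22 in MEP, against 6.72, 6.58, 6.72 and 6.93 in GMP, a rise of 0.41 ± 0.14. The housekeeping form of the first enzyme was thus 11.8-fold lower in MEP beside a rise of the enzymes named after it. Alas1 averaged 8.40 in CMP, 2.55 ± 0.15 below GMP.

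Of the 8 tested haem genes, 6 were called higher and 1 lower in MEP, with a median of 0.62. With 1 array left out at a time, between 4 and 5 were called higher. The call of Alas2 (adjusted p = 0.0375) was lost without any 1 MEP array or without GMP replicate 1, 2 or 3. That of Ppox (a rise of 0.57 ± 0.20, adjusted p = 0.0423) was lost without MEP replicate 1 or 2 or without GMP replicate 1 or 4. Their adjusted p-values were then at most 0.107 for Alas2 and 0.176 for Ppox. Uros changed by 0.39 ± 0.16 and was not called.

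Genes of iron handling moved in both directions. Tfr2, a transferrin receptor that associates with the erythropoietin receptor, was 10.29, 10.05 and 10.36 in MEP, against 7.42, 7.94, 8.03 and 7.06 in GMP, and rose by 2.62 ± 0.17 in MEP (adjusted p = 1.54e-10). Slc40a1, the iron exporter ferroportin, rose by 1.68 ± 0.37, Steap3, a ferrireductase of endosomes, by 1.41 ± 0.25 and Isca1, an iron-sulphur assembly factor, by 1.38 ± 0.24. The groups did not overlap for these 4 genes. Tfrc, the main transferrin receptor, was between 11.18 and 11.71 in MEP and between 10.99 and 11.27 in GMP and was not called. Of 18 tested genes, 8 were called higher (44.4%) and 4 lower (22.2%, beside 15.6% of all genes) in MEP, with a median of 0.22. Among the lower ones were Ncoa4, which sends ferritin to lysosomes (a fall of 1.09 ± 0.14), and Tspo, a mitochondrial porphyrin-binding protein (1.06 ± 0.11), and the number called lower was 2 without MEP replicate 3 or without GMP replicate 3.

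Of 14 tested megakaryocyte and platelet genes, 7 were called higher and 1 lower in MEP and 6 were not called, with a median of 0.73. These shares leave out the dimmer part of the 22 list members on the array, which the intensity filter removed. Among those removed, Ppbp, Itgb3, Cd9 and Alox12 never exceeded the floor in either group. P2ry1 and Rab27b exceeded it only in MEP, reaching at most 5.96 and 5.77. Clec1b and Thbs1 gave dim signal in both groups. F2r, a thrombin receptor, was 12.27, 12.40 and 12.19 in MEP, against 7.53, 7.68, 7.68 and 8.28 in GMP, 22.6-fold higher in MEP (adjusted p = 1.38e-14). Pf4, platelet factor 4, was 10.76, 10.70 and 11.25 in MEP, against 7.08, 6.52, 6.46 and 9.66 in GMP, and rose by 3.47 ± 0.56 in MEP. Pf4 was higher on GMP replicate 4 than on the other GMP arrays, and its rise was 4.22 without that array. Vwf, von Willebrand factor, was 7.34, 7.01 and 7.38 in MEP and at the floor on all 4 GMP arrays, at least 3.92-fold higher in MEP, and Gp5, a platelet glycoprotein, rose by 1.93 ± 0.22. The groups did not overlap for these 4 genes. Itga2b, the integrin chain CD41, was between 10.36 and 10.91 in MEP and between 9.004 and 9.30 in GMP, a rise of 1.44 ± 0.24.

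The one lower in that list was Nbeal2, needed for platelet alpha granules, with a fall of 0.68 ± 0.15. Against CMP, 2 were called higher and 4 lower in MEP, and 0 higher and 10 lower in GMP. Pf4 differed by -0.04 ± 0.56 between MEP and CMP (adjusted p = 0.981) and was 3.51 ± 0.52 lower in GMP than in CMP. F2r differed by 0.46 ± 0.16 between MEP and CMP and was 4.04 ± 0.14 lower in GMP than in CMP.

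Some of the largest rises belonged to no list. Ces2g, a carboxylesterase, was 10.65, 10.63 and 10.69 in MEP, against 5.40, 5.27, 5.27 and 5.27 in GMP, a rise of 5.35 ± 0.35 at this floor, or of 3.91 and 6.32 with the floor at the 50th and the 10th percentile. Abcb4, a phospholipid transporter, rose by 4.56 ± 0.18 and Hemgn, the blood progenitor protein hemogen, by 4.07 ± 0.15. Aqp9, a channel for water and glycerol, was at least 16.7-fold higher in MEP. The rule that picked these 4 genes asked for groups without overlap. Col5a1, a collagen chain, was 9.03, 8.75 and 9.31 in MEP and at the floor on all 4 GMP arrays, at least 13.5-fold higher in MEP. Its probe sets disagreed. Without the filter on low probe sets, another one, brighter on average, stood for the gene, with a change of 0.54 (adjusted p = 0.0501).

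GMP held the proteases of primary granules, the stores that neutrophil precursors fill first. Elane, neutrophil elastase, was 7.07, 8.83 and 7.40 in MEP, against 12.36, 12.46, 12.70 and 12.89 in GMP, 28.5-fold lower in MEP (adjusted p = 3.27e-06). Mpo, myeloperoxidase, was 9.78, 10.77 and 8.88 in MEP, against 12.91, 12.91, 12.93 and 12.95 in GMP, and fell by 3.11 ± 0.33 in MEP. Ctsg, cathepsin G, was 8.79, 9.51 and 8.23 in MEP, against 12.84, 12.75, 12.82 and 12.90 in GMP, and fell by 3.98 ± 0.39. The groups did not overlap, and MEP replicate 2 had the highest MEP value of each. Prtn3, proteinase 3, fell by 3.36 ± 0.20 and was highest on MEP replicate 2 in the same way.

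Ms4a3, a membrane protein of early granulocytes, was 6.61, 7.84 and 6.27 in MEP, against 12.09, 11.91, 12.06 and 12.18 in GMP, 35.5-fold lower in MEP (adjusted p = 1.09e-07). Igsf6, an immunoglobulin superfamily receptor, was 5.27, 6.77 and 5.27 in MEP, against 10.91, 10.78, 10.95 and 11.14 in GMP, and fell by 5.17 ± 0.44, with 2 of 3 MEP arrays at the floor. Hp, haptoglobin, which binds free haemoglobin, fell by 4.41 ± 0.57. Of 17 tested granule genes, 15 were called lower and 0 higher in MEP, with a median of -2.95, and between 14 and 16 were called lower with 1 array left out. Among them Lyz1, a lysozyme, fell by 1.04 ± 0.38 (adjusted p = 0.0469), a call lost without MEP replicate 1 or 3 or without GMP replicate 1, 3 or 4, with an adjusted p of at most 0.252. Its fall was 1.58 without MEP replicate 2. Lyz1 and Lyz2 share near-identical sequence, so their probe sets may share signal. The mean level of the list was 8.17, 9.05 and 8.08 on the MEP arrays and 11.20, 11.005, 11.22 and 11.38 on the GMP arrays.

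CMP had high levels of some granule genes and low levels of others. Mpo averaged 12.25, Prtn3 12.02 and Ctsg 11.79 in CMP. Elane averaged 8.56 in CMP, 4.04 ± 0.58 below GMP, and differed by -0.80 ± 0.63 between MEP and CMP (adjusted p = 0.469). Hsd11b1, a glucocorticoid-activating enzyme, likewise was 4.38 ± 0.46 higher in GMP than in CMP and differed by 0.16 ± 0.50 between MEP and CMP (adjusted p = 0.886). Over the granule list, 0 were called higher and 10 lower in MEP than in CMP, and 11 higher and 0 lower in GMP than in CMP.

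Of 14 tested genes of later neutrophils, 4 were called lower (28.6%, beside 15.6% of all genes) and 0 higher in MEP, with a median of -0.12. Pglyrp1, a granule protein that binds bacterial walls, was at the floor on all 3 MEP arrays, against 7.59, 7.90, 8.16 and 8.98 in GMP, at least 7.39-fold lower in MEP. Ltb4r1, a leukotriene B4 receptor, Anxa1, the anti-inflammatory annexin, and Padi4, which citrullinates histones, fell by 1.90 ± 0.21, 1.82 ± 0.20 and 1.33 ± 0.34. The secondary granule genes varied within both groups. Ltf, lactoferrin, was 6.74, 9.18 and 7.94 in MEP, against 8.99, 5.80, 7.29 and 8.08 in GMP, and Ngp, a neutrophil granule protein, was 9.60, 11.34 and 10.06 in MEP, against 11.26, 9.03, 10.02 and 11.003 in GMP. Camp, the cathelicidin, was 8.76, 10.63 and 8.91 in MEP, against 10.44, 7.998, 8.85 and 10.58 in GMP. MEP replicate 2 was the highest MEP array and GMP replicate 2 the lowest GMP array for all 3, and none was called. The mean of the list was 7.63, 8.72 and 7.88 on the MEP arrays and 9.07, 7.95, 8.48 and 9.24 on the GMP arrays. The part of mature neutrophil RNA in the granule results was not tested.

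**Figure D3:**
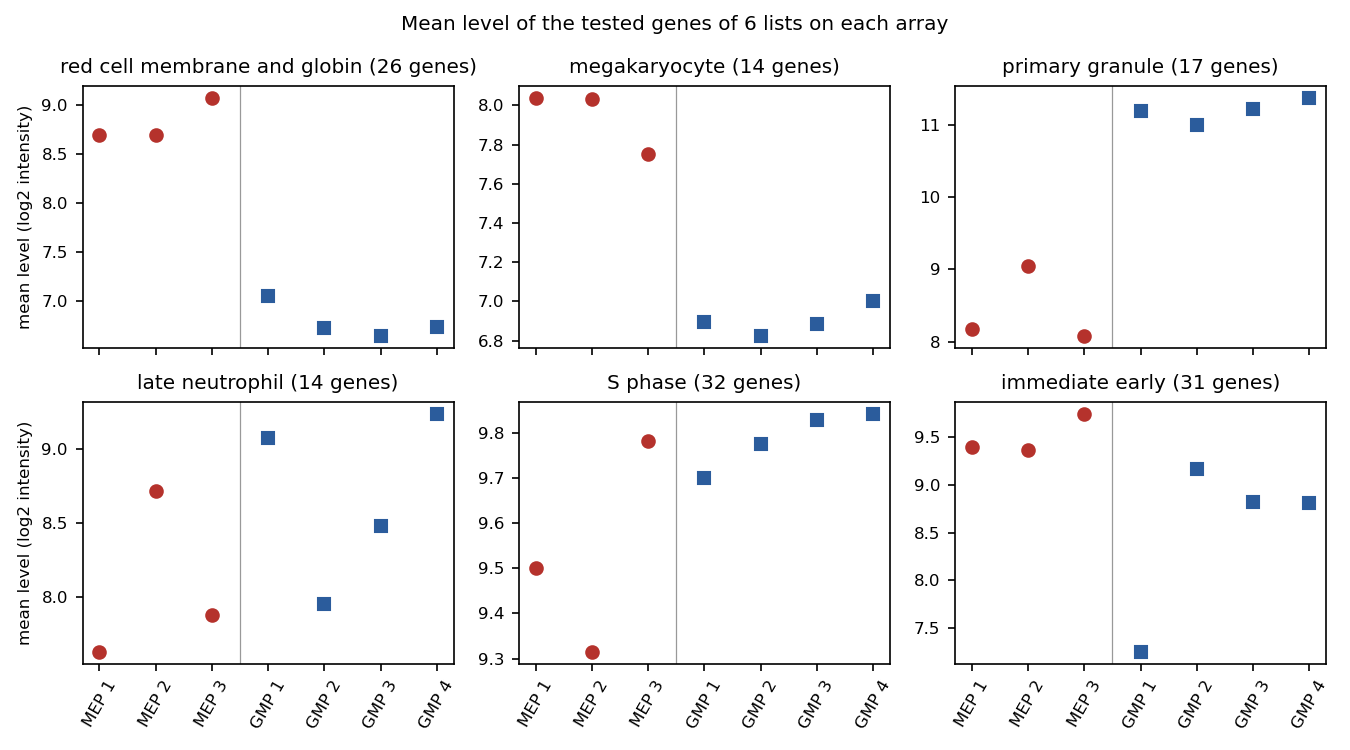
Mean log2 level of the tested genes of 6 lists on each of the 3 MEP and 4 GMP arrays. Red cell, megakaryocyte and primary granule genes separate the groups, late neutrophil genes overlap between them, and GMP 1 is lowest for immediate early genes.

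Most tested monocyte and macrophage genes were called lower in MEP. F13a1, coagulation factor XIII A, was 5.63, 7.51 and 5.31 in MEP, against 11.40, 11.14, 11.22 and 11.44 in GMP, 35.4-fold lower in MEP (adjusted p = 1.08e-07). Ly86, the partner of a Toll-like receptor homologue, was 5.76, 6.37 and 6.13 in MEP, against 10.40, 10.29, 10.31 and 10.25 in GMP, and fell by 4.23 ± 0.24. Clec7a, the beta-glucan receptor Dectin-1, fell by 3.97 ± 0.43. These 3 genes did not overlap between the groups, and all had CMP means between those of MEP and GMP, at 9.71, 9.44 and 7.86. Tfec, a transcription factor of macrophages and related to MITF, was at the floor on all 3 MEP arrays, against 9.31, 9.25, 9.45 and 9.81 in GMP, at least 18.1-fold lower in MEP.

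Of 24 tested genes of this list, 15 were called lower and 1 higher in MEP, with a median of -1.66. The one higher was Apoe, apolipoprotein E, which was 11.68, 11.72 and 12.04 in MEP, against 7.97, 7.84, 8.11 and 7.46 in GMP, 15.6-fold higher in MEP (adjusted p = 8.11e-13). Apoe averaged 10.84 in CMP, and was 2.99 ± 0.17 lower in GMP than in CMP. Adgre1, an adhesion receptor of macrophages, was between 5.27 and 5.87 in MEP and between 7.22 and 7.57 in GMP. It was called lower in MEP (adjusted p = 3.83e-07), and Cx3cr1 was not called. Itgam, the CD11b chain, was at the floor on all MEP arrays and on 3 of 4 GMP arrays. The summed intensity of the list was between 6143.0 and 7681.0 in MEP and between 15040.0 and 17740.0 in GMP.

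Subunits of the oxidase with which phagocytes make superoxide were lower in MEP. Ncf4 (p40phox) was 7.12, 7.57 and 6.96 in MEP, against 9.94, 9.995, 9.91 and 10.52 in GMP, and fell by 2.87 ± 0.16 in MEP (adjusted p = 1.94e-11). Rac2, its small GTPase, fell by 0.81 ± 0.17. All 4 tested members were called lower, with a median of -0.66, while Ncf1 and Cyba fell by 0.52 ± 0.17 and 0.39 ± 0.14, and 2 members were called without GMP replicate 4 or without MEP replicate 2. A second probe set of Ncf1 fell by 1.79 (adjusted p = 1.22e-06). The highest adjusted p with 1 array left out was 0.101 for Ncf1 and 0.172 for Cyba, whose call was also lost without MEP replicate 1 or GMP replicate 3.

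Of 9 tested genes of innate sensing, 5 were called lower and 0 higher in MEP, with a median of -0.73. Nlrp3, the inflammasome sensor, fell by 2.05 ± 0.30 and its adaptor Pycard by 1.08 ± 0.11. Tirap, an adaptor of Toll-like receptors, fell by 1.27 ± 0.18, and Tlr1 was at the floor on all 3 MEP arrays and between 6.68 and 6.75 in GMP. Lta4h and Alox5ap, which make leukotrienes, fell by 1.59 ± 0.14 and 1.23 ± 0.14, and Ptger2, a prostaglandin E2 receptor, by 1.80 ± 0.24. Ptger3, another receptor of that ligand, rose by 0.75 ± 0.17, but it was not called with the mean of its probe sets (adjusted p = 0.0645). Of 14 tested leukotriene and prostaglandin genes, 5 were called lower and 1 higher in MEP.

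Markers of further cell types were measured alongside. Hdc, histidine decarboxylase of basophils and mast cells, was 6.20, 6.19 and 5.27 in MEP, against 10.12, 10.30, 10.50 and 10.47 in GMP, and fell by 4.46 ± 0.24 in MEP (adjusted p = 6.47e-12). Mcpt8, the basophil protease, was at the floor on all 3 MEP arrays, against 8.11, 8.19, 8.34 and 7.91 in GMP, at least 7.29-fold lower in MEP. Prg2, an eosinophil granule protein, was 5.27, 6.94 and 7.22 in MEP, against 8.94, 8.13, 7.44 and 11.26 in GMP, and fell by 2.46 ± 0.83 (adjusted p = 0.0309). The groups did not overlap for Hdc, Mcpt8 or Prg2, but the call of Prg2 was lost without MEP replicate 1, GMP replicate 1 or GMP replicate 4, with an adjusted p of at most 0.152. Of 7 tested genes, 3 were called lower and 0 higher, and 2 had a change above 0. The summed intensity of the 7 was between 690.9 and 1009.0 in MEP and between 2829.0 and 5071.0 in GMP. The list has 15 members on the array, and those not tested were too dim for the filter. Among these, Fcer1a was at the floor on all 3 MEP and on 3 of 4 GMP arrays, and Ccr3 on all MEP and GMP arrays. Ms4a2 was between 5.28 and 5.41 in MEP and between 5.27 and 5.95 in GMP. The part of basophil-lineage cells in the GMP sort was not tested.

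Of 5 tested B cell genes, 2 were called lower and 0 higher in MEP, and of 10 genes of lymphoid-primed progenitors 4 were called lower and 2 higher. Ighm, the immunoglobulin mu chain, was 6.50, 6.94 and 9.34 in MEP, against 10.54, 10.15, 10.35 and 10.68 in GMP, and fell by 2.84 ± 0.47 in MEP. MEP replicate 3 stood above the other MEP arrays for Ighm, and the fall was 3.71 without that array. The probe sets of Ighm disagreed, and with their mean the fall was 0.69. A second one was called with a fall of 1.49, while others changed by -0.30, 0.04, -0.11 and 0.53 and were not called. Cd79b, a chain of the B cell receptor, fell by 1.84 ± 0.18, while Pax5, the B lineage factor, was not called, Ebf1 was at the floor on all 7 arrays, and the summed intensity of the tested B cell genes was between 1422.0 and 1798.0 in MEP and between 2504.0 and 3158.0 in GMP. The lymphoid-primed genes Notch1, Cd27, Satb1 and Ets1 fell by 2.28 ± 0.23, 1.72 ± 0.28, 1.54 ± 0.37 and 1.25 ± 0.32, and Tcf3, the E protein E2A, rose by 0.54 ± 0.13. Without MEP replicate 3, 4 lymphoid-primed genes were called lower and 3 higher, and the fall of Cd27 was 1.17. The median of that list was then -0.07, beside -0.23 with all arrays. Dntt, the template-free DNA polymerase, averaged 6.66 in MEP, 5.47 in GMP and 10.44 in CMP, and rose by 1.19 ± 0.28 in MEP against GMP with overlapping groups, a call that was lost with the mean of its probe sets (0.40). Of 8 tested T and NK cell genes, 0 were called higher and 1 lower (12.5%, beside 15.6% of all genes). Without GMP replicate 1, 2 were called higher. The list had a summed intensity between 1608.0 and 1977.0 in MEP and between 1675.0 and 2075.0 in GMP, and Cd3g was at the floor on all 7 arrays.

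Calls among MHC class II genes rested in part on 1 array. H2-Eb1 was 8.72, 8.42 and 10.20 in MEP, against 6.95, 6.92, 6.93 and 7.69 in GMP, and rose by 1.99 ± 0.47 in MEP (adjusted p = 0.00268), or by 1.45 without MEP replicate 3. Of 8 tested class II and dendritic cell genes, 4 were called higher (50%) and 1 lower (12.5%, beside 15.6% of all genes) in MEP. Without MEP replicate 3, 2 were called higher, and H2-Aa and H2-Ab1 had adjusted p-values of 0.0644 and 0.0822. The one lower was Bst2, the antiviral protein tetherin, with a fall of 0.48 ± 0.14 (adjusted p = 0.0157), a call lost without MEP replicate 2 or 3 or without GMP replicate 2 or 3. Cd74, the class II chaperone, rose by 1.23 ± 0.30, and was not called with the floor at the 50th percentile (0.33).

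Several genes known from stem cells were higher in MEP than in GMP. Tgm2, a transglutaminase, was 8.01, 7.78 and 7.62 in MEP and at the floor on all 4 GMP arrays, at least 5.77-fold higher in MEP. Slamf1 (CD150), Txnip, an inhibitor of thioredoxin, Tek, the angiopoietin receptor, and Meis1, a homeobox factor, rose by 2.02 ± 0.18, 2.01 ± 0.20, 1.67 ± 0.23 and 1.40 ± 0.22. Of 23 tested, 9 were called higher and 1 lower in MEP, with a median of 0.24. The one lower was Cd48, with a fall of 0.85 ± 0.14, and Hlf was not called. Against CMP, 2 were called higher and 5 lower in MEP, and 0 higher and 14 lower in GMP. Of 6 tested stromal and endothelial genes, Col1a2 and Kdr rose by 1.33 ± 0.31 and 0.78 ± 0.21, and the summed intensity of that list was between 803.4 and 1583.0 in MEP and between 520.2 and 793.5 in GMP.

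**Figure D4:**
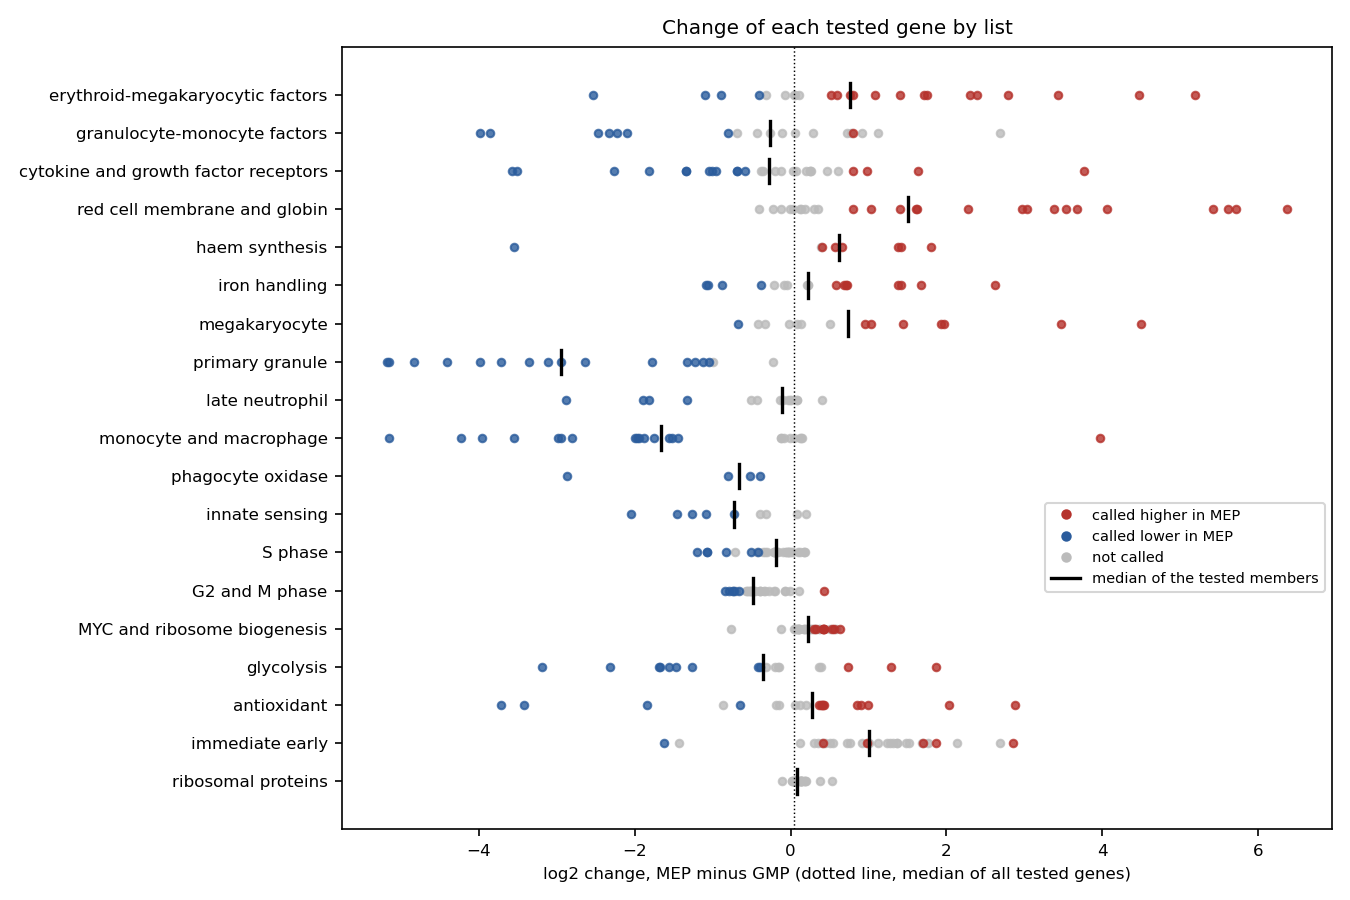
Change of each tested gene, MEP minus GMP on the log2 scale, in 19 lists, with called genes in colour and a bar at the median of each list. Primary granule genes have a median of -2.95 and red cell genes of 1.51, while ribosomal proteins, at 0.08, stay beside the median of all genes.

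The shares of cell cycle genes called lower in MEP lay near that of all genes, though most of their changes lay below 0. Rrm2, the S phase subunit of ribonucleotide reductase, was 9.70, 9.30 and 10.38 in MEP, against 11.08, 11.04, 10.82 and 11.05 in GMP, and fell by 1.20 ± 0.23 in MEP (adjusted p = 0.000322). Ccne2, cyclin E2, fell by 1.08 ± 0.15, Cdc45, a helicase cofactor, by 1.07 ± 0.25 and Gins1, of the same helicase, by 0.83 ± 0.20. Of 32 tested S phase genes, 6 were called lower (18.8%, beside 15.6% of all genes) and 0 higher in MEP, with a median of -0.18. Among the 32, 25 had a change below 0, beside 3719 of all 8422 genes. Without scaling 9 were called lower, and 10 were called lower without MEP replicate 3 and 4 without MEP replicate 2. The mean of the list was 9.50, 9.32 and 9.78 on the MEP arrays and between 9.70 and 9.84 on the GMP arrays. Of 30 tested G2 and M phase genes, 5 were called lower (16.7%) and 1 higher, with a median of -0.48 and 28 below 0. The number called lower was 9 without scaling, 7 without MEP replicate 3, 1 without MEP replicate 2 and 2 without GMP replicate 4. Tacc3, a spindle protein, fell by 0.72 ± 0.19. Cdkn1b, the inhibitor p27, rose by 0.64 ± 0.15, and Bak1 and Bid, which promote cell death, fell by 1.38 ± 0.29 and 0.64 ± 0.13, the fall of Bid being 0.35 with the mean of its probe sets.

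Close relatives in several families changed in opposite directions. The 8 pairs described here were picked for that after their values were seen, so their differences are a description. With the mean of probe sets the change of Slc2a1 was -0.99 and that of Tgfbr2 0.36. Hk1, a hexokinase of red cells, was 11.18, 11.43 and 11.43 in MEP, against 10.51, 10.72, 10.75 and 10.47 in GMP, a change of 0.73 ± 0.13. Hk2, its inducible relative, was 8.999, 8.94 and 8.65 in MEP, against 10.43, 10.51, 10.60 and 10.68 in GMP, a change of -1.69 ± 0.17. The next committed step of glycolysis had Pfkm, the muscle form of phosphofructokinase, at 1.29 ± 0.19 and Pfkp, the platelet form, at -1.56 ± 0.17. The glucose transporters Slc2a3 and Slc2a1 were at 1.87 ± 0.22 and -1.67 ± 0.26. Each of these 6 picked genes had MEP and GMP values that did not overlap, as had 32.5% of all genes.

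The glutathione transferases Gstm5 and Gstm1, whose probe sets may share signal, stood at 2.88 ± 0.21 and -3.42 ± 0.22. Mthfd1, a cytosolic folate enzyme, stood at 1.35 ± 0.15, and Mthfd2, its mitochondrial relative, at -0.93 ± 0.19. The stress genes Gadd45a and Gadd45b stood at 1.70 ± 0.18 and -1.63 ± 0.19. Tgfbr2 and Tgfbr1, the chains of the TGF-beta receptor, stood at 0.98 ± 0.16 and -0.69 ± 0.16, and Gfi1b and Gfi1 at 4.47 ± 0.16 and -3.86 ± 0.29.

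**Figure D5:**
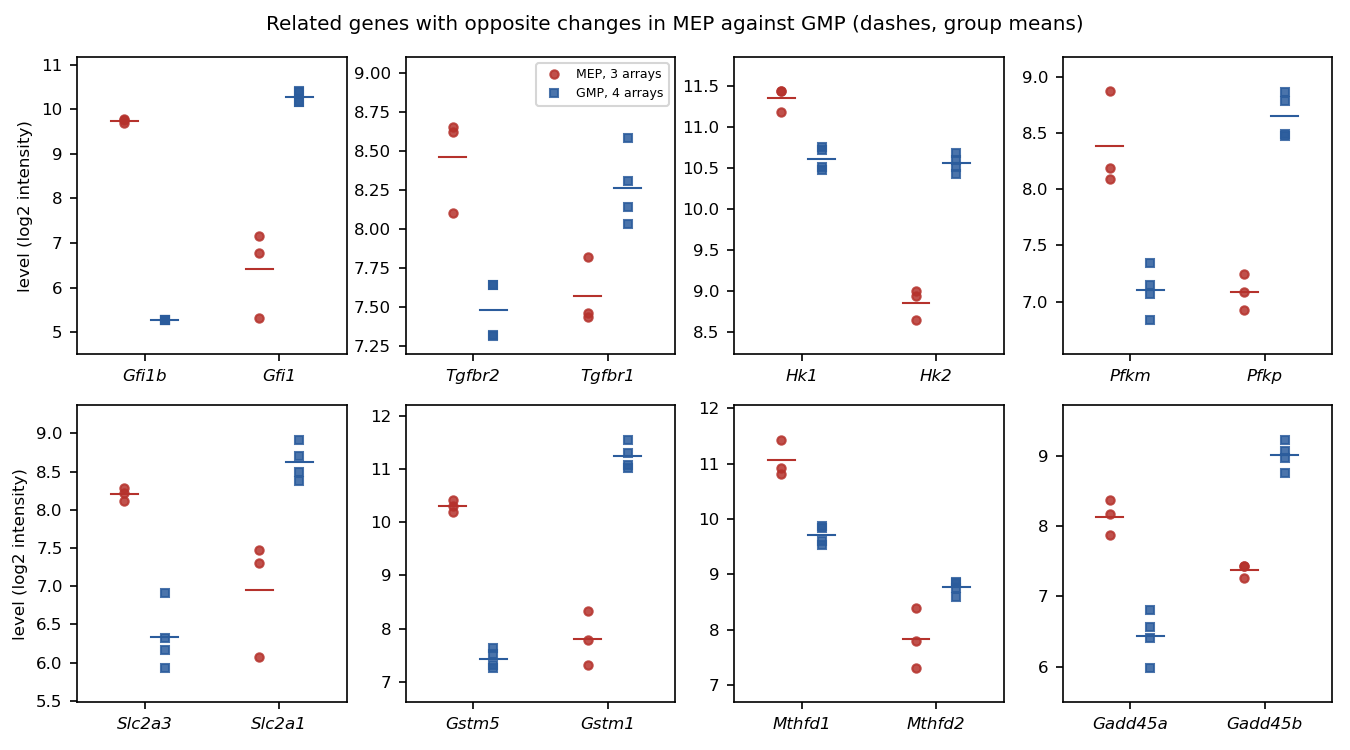
Levels on each array of 8 pairs of related genes on a log2 intensity axis, with a dash at each group mean. In each pair one gene is higher and its relative lower in MEP, with changes from 0.73 for Hk1 to 4.47 for Gfi1b among the higher and from -0.69 for Tgfbr1 to -3.86 for Gfi1 among the lower.

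Metabolic lists moved less than these members. Pkm, pyruvate kinase, was 6.98, 7.31 and 6.62 in MEP, against 9.91, 9.94, 10.30 and 10.48 in GMP, and fell by 3.19 ± 0.20 in MEP (adjusted p = 9.25e-11), and Pgam1, which acts earlier in glycolysis, fell by 2.32 ± 0.14. Of 19 tested glycolysis and pentose phosphate genes, 4 were called higher and 9 lower in MEP, with a median of -0.32. Of 20 antioxidant genes, 10 were called higher and 4 lower, with a median of 0.28, and 6 were called higher without scaling of the arrays. Gclm, a subunit of the enzyme that limits glutathione synthesis, rose by 2.04 ± 0.15, while Gsr, glutathione reductase, and Mgst1, a microsomal glutathione transferase, fell by 1.84 ± 0.18 and 3.71 ± 0.22. Of 20 genes of nucleotide and folate metabolism, 3 were called higher (15%) and 4 lower (20%), near the 11.9% and 15.6% of all genes. Without MEP replicate 2, 1 was called lower.

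Of 34 genes of MYC and ribosome biogenesis, 9 were called higher and 0 lower in MEP, with a median of 0.23. That number was 4 without MEP replicate 2 and 3 without scaling of the arrays. Rcl1, an 18S rRNA processing factor, rose most among them, by 0.63 ± 0.14. Of 31 ribosomal protein genes, 0 were called in limma's test, with a median of 0.08, and 1 of them had an unadjusted p under 0.05.

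For immediate early genes, which respond to signals and to handling within minutes, 1 GMP and 1 CMP array stood apart. The mean of 31 tested genes was 9.40, 9.37 and 9.75 on the MEP arrays, against 7.25, 9.17, 8.82 and 8.82 on the GMP arrays, and 7.45, 9.76, 9.69 and 9.61 on the CMP arrays, replicate 1 being lowest in GMP and in CMP. The other 3 GMP arrays also lay below every MEP array. The median change was 1.002, with 5 called higher (16.1%, beside 11.9% of all genes) and 1 lower (3.23%, beside 15.6%) in MEP. Without GMP replicate 1 the median was 0.65 and 5 were called higher, and 11 were called higher with the replicate number as a block. Rgs1, a regulator of G-protein signalling, was 10.16, 10.25 and 10.23 in MEP, against 5.27, 8.23, 7.73 and 8.22 in GMP, and rose by 2.85 ± 0.64 in MEP, or by 2.15 without GMP replicate 1. Jund, a member of the AP-1 family, was 11.83, 11.92 and 11.93 in MEP, against 9.36, 11.73, 11.43 and 11.40 in GMP, and was not called. The part of sample handling in this pattern was not tested.

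Of 24 tested interferon-stimulated genes, 9 were called higher (37.5%) and 3 lower (12.5%, beside 15.6% of all genes) in MEP, with a median of 0.31. The number called lower was 1 without MEP replicate 3 or without GMP replicate 3. Rtp4, a chaperone of receptors, was 10.10, 10.14 and 9.005 in MEP, against 7.87, 8.13, 8.16 and 6.50 in GMP, and rose by 2.08 ± 0.41 in MEP. Isg20, an exonuclease that degrades viral RNA, rose by 1.70 ± 0.25, and Irf7, a regulator of type I interferon, by 1.29 ± 0.15, though Irf7 was not called with the floor at the 50th percentile (0.08). Gbp3, a guanylate-binding protein, ran the other way, with a fall of 2.24 ± 0.23.

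The MEP arrays also differed among themselves. Set against the mean of replicates 1 and 2, the median of MEP replicate 3 was 0.31 higher for red cell genes and 0.39 higher for S phase genes. The same difference was -0.66 for stem cell genes and -0.93 for lymphoid-primed genes, beside -0.01 for all genes. Meis1 was 9.36, 9.38 and 7.9995 on MEP replicates 1, 2 and 3, and Runx1, a factor of stem cells and megakaryocytes, was 9.49, 9.32 and 7.98, lowest on replicate 3 for both. With MEP replicate 3 and GMP replicate 4 left out, an alternative chosen after the data were seen, 14 erythroid and megakaryocytic factors and 15 red cell genes were called higher in MEP, and 14 primary granule genes and 15 monocyte and macrophage genes were called lower. In that fit the number called higher was 4 for MYC and ribosome biogenesis, 6 for antioxidant genes, 2 for class II and dendritic cell genes and 3 for immediate early genes, beside 9, 10, 4 and 5 with all arrays. The number of G2 and M phase genes called lower was 2, beside 5.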

How the data were processed

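RNA of sorted mouse marrow cells was measured on Affymetrix arrays. The deposited values are MAS5 signals, a linear intensity per probe set, per the submitters' processing notes; the MAS5 version and scaling target are not given in the sources used here. The 22 arrays of the sorted experiment were used, and the 6 arrays of the transduced experiment were left out because the design text calls the experiments noncomparable.

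The deposited intensity of each array was scaled to a common 2% trimmed mean (factors 0.923 to 1.12), floored at the 25th percentile of the experiment (38.7) and turned into log2 here. Of 22690 probe sets, 20380 name 1 gene, 691 several and 1555 none, and 64 are controls. A probe set was kept when it lay above the experiment's median (107.5) on at least 3 arrays, which left 13439, and the brightest of these on average stood for its gene, giving 8422 genes. All 5 sorted groups entered 1 limma fit (version 3.58.1, R 4.3.3) without covariates, with Benjamini-Hochberg adjustment over all genes. The fit was tried on simulated levels with independent normal noise and no floor. That trial does not cover floored values, outlying arrays or deviations shared between arrays. The number of arrays limits the precision.

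Named genes are the 15 largest called rises and falls without overlap, up to 4 called members of each of 32 gene lists with the largest changes, up to 3 that moved against their list, all tested members of the lists of sort markers, factors, receptors, haem synthesis and oxidase, members at the floor in a whole group, and cell type markers. Lyz1, Lyz2, Pfkp and Slc2a1 were added after their values were seen. The members and lists were chosen with earlier results of these data known. Alternatives were other scalings, floors, filters, probe set summaries, array weights, fits on fewer groups, a 3' to 5' covariate, a mean-variance trend, a replicate block and each array left out.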

Additional observations from a re-analysis of the deposited data

Results flagged for a closer look

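Of 174 genes named and checked over the 4 GMP arrays, 17 had 1 array further from the others than Dixon's critical value allows. Chance would flag about 1 in 20 groups of normal values without a floor, so that rate cannot be set beside the 17. Where the other GMP arrays tie at the floor, any higher value is flagged by construction. This was so for Aqp1, Ces2g, Dntt, Ermap and Itgam. On GMP replicate 1 the highest of the group were Aqp1 at 5.61, Ermap at 5.56, Ces2g at 5.40 and Itgam at 5.60, each beside GMP arrays at the floor. On the same array Cpox (8.15), Il3ra (6.93), Jund (9.36) and Rgs1 (at the floor, 5.27) were the lowest of the group, while the nearest GMP arrays lay at 8.76, 7.50, 11.40 and 7.73.

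GMP replicate 4 was highest for Cd74 (6.11), H2-Eb1 (7.69), Hsd11b1 (10.81), Ncf4 (10.52) and Slc40a1 (9.38), and lowest for Rtp4 (6.50) and Steap3 (5.90). GMP replicate 3 was highest for Dntt (6.06) and lowest for Rrm2 (10.82). The 3 MEP arrays were too few for this check.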

How the results depend on the processing

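Of 3828 results of single genes under an alternative, 3675 kept their direction and their side of the threshold, 109 lost the call and 11 gained one. Another 33, of 9 genes, changed sign or came to 0 without being called in either fit, and 0 were called with the opposite sign. Another probe set of Lta4h, Mthfd2, Ncoa4 and Tacc3 was not called. With 1 array left out, the genes called higher in MEP than in GMP numbered 797 to 999, those called lower 1062 to 1272, and those called with a change of at least 2-fold 767 to 812. The genes called higher in MEP than in CMP numbered 348 to 525 and those called lower 658 to 956, and the genes called higher in GMP than in CMP 522 to 665 and those called lower 543 to 690. Without scaling, 632 genes were called higher in MEP than in GMP and 307 higher in MEP than in CMP. With array weights, 1185 genes were called higher and 1147 lower in GMP than in CMP. With only the 7 MEP and GMP arrays, 765 genes were called higher and 1075 lower in MEP than in GMP. The calls of Bst2, Cyba, Dntt, H2-Ab1, Lyz1, Nfe2, Ppox and Prg2 were then lost. With only the 16 arrays of normal sorts, those of Cyba, Lyz1, Nfe2 and Prg2 were lost and Uros gained one. The causes were not tested. No scaling moved the median change of all genes to -0.05, beside 0.05 with the trimmed mean. A floor at the 50th percentile narrows any change of a dim gene by its construction. Among the named genes it ended the calls of Cd74, Col1a2, Dntt, Irf7, Lyz1, Nbeal2, Padi4, Tlr1 and Vwf. With MEP replicate 3 and GMP replicate 4 left out, chosen after seeing the data, 849 genes were called higher and 1055 lower in MEP than in GMP, and with GMP replicate 1 left out as well, also chosen after seeing the data, 682 and 962.

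The deviations of same-numbered MEP and GMP arrays had correlations from -0.21 to 0.01, with 0 of 3 over 0.1, so their numbers were not taken as pairs. For MEP and CMP they ran from -0.35 to 0.15, with 1 of 3 over 0.1, and for GMP and CMP from 0.07 to 0.44, with 3 of 4 over 0.1. Between MEP and GMP arrays of different number they ran from -0.31 (MEP 3 with GMP 2) to 0.42 (MEP 1 with GMP 2). Between such MEP and CMP arrays they ran from -0.37 (MEP 2 with CMP 4) to 0.53 (MEP 3 with CMP 4). Some arrays of different number thus shared deviations, and the cause was not tested. A replicate block ended the calls of Cyba, Lyz1, Nfe2, Ppox and Prg2 among the named genes and added that of Egr1. It gave 1072 rises and 1328 falls in MEP against GMP, 797 of all of these at least 2-fold, 568 and 963 in MEP against CMP, and 673 and 737 in GMP against CMP. MAS5 signals of dim probe sets carry high relative noise, and a level at the floor sets only a bound.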
